A study of Mus musculus with 23 samples.

Results

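Monocytes from the site of a poly(ethylene glycol) (PEG) hydrogel, taken 2 days after it was placed under the skin, were compared with monocytes from mice without an implant. The libraries were chosen by their labels, 3 of day 2 monocytes and 3 of control monocytes, which are 6 of the 23 libraries of the series. Both groups came from subcutaneous tissue of wild-type C57BL/6J mice, and the series' design note defines its monocytes as Cx3cr1-positive and Ly6C-high and its replicates as biological. The day 2 mice carried a PEG hydrogel implant for 2 days and the controls had no treatment. Tissue, and the gels where present, were digested with Liberase TM before total RNA was taken. The number of animals per library, their age and their sex were not given in the sources used here. Macrophages of the same series, defined as Cx3cr1-positive and Ly6C-low, were used where a test asked if a change differed between the cell types. These were 3 libraries of macrophages from mice with the implant for 2 days and 2 libraries of macrophages from untreated mice.

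A PEG hydrogel is a water-swollen synthetic polymer that tissue treats as a foreign body. Ly6C-high monocytes, also called classical or inflammatory monocytes, are short-lived blood cells made in the bone marrow. They enter injured tissue through the chemokine receptor Ccr2, make inflammatory mediators there and can mature into macrophages. Ly6C-low nonclassical monocytes patrol vessel walls, and Ly6C-high cells can convert to them in the circulation.

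Expression was measured by RNA sequencing with a whole-transcript method for small inputs, and the deposited values are read counts per gene. Levels are given as CPM, read counts scaled to each library's total after TMM scaling, in the order of libraries A, B and C of each group. Library totals were 13384522, 18511745 and 20868586 counts at day 2, against 32994092, 30402667 and 30517145 counts in controls, so a count of 3 corresponds to 0.236, 0.167 and 0.143 CPM at day 2 and 0.0654, 0.0796 and 0.071 CPM in controls. The share of counts from mitochondrially encoded genes was 2.88, 1.44 and 1.18% at day 2, against 0.511, 0.709 and 0.552% in controls. Rank correlations were 0.936 to 0.969 between libraries of the same group and 0.845 to 0.905 between the groups. A gene was called higher or lower where edgeR's quasi-likelihood test, fitted over all 23 libraries, gave a Benjamini-Hochberg adjusted p under 0.05. Such genes are said to have risen or fallen. Errors of log2 fold changes are approximate standard errors, worked back from the test. Each is the size of the fitted log2 fold change divided by the square root of the test's F value.

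Of 16260 genes tested, 2522 were higher at day 2 (15.5%) and 1867 were lower (11.5%). The median log2 fold change over all genes was 0. All 3 day 2 libraries lay above all 3 controls for 3656 genes (22.5%) and below them for 3628 (22.3%). The counts of higher genes lay between 1498 and 2368 when each library was left out in turn, the lowest without control A, and those of lower genes between 1030 and 1940, the lowest without day 2 A. Without control C 1528 were higher and 1157 lower, and without day 2 B 1080 were lower. Median change also followed transcript properties. Genes with over 60% GC in their exons had a median log2 fold change of -0.98 (534 genes, 5.81% higher and 22.1% lower). The sixth of genes with the shortest exon sequence had a median of 0.91 and the sixth with the longest -0.42. With an offset that removes the trends with exon length and GC, 2254 genes were higher and 1503 lower. Of 199 called genes named here with a fitted fold change, 40 moved by over 1.5 times with that offset, and 5 to 15 with a single library left out. The value with that offset is given beside the fold changes and list medians it moved so far, and libraries are named beside the calls and counts that their omission changed. Day 2 library A held the least of GC-rich transcripts, with a median log2 deviation of -0.93 for genes with over 60% GC. The part of GC content and length in the results was not tested beyond these offsets.

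**Figure D1:**
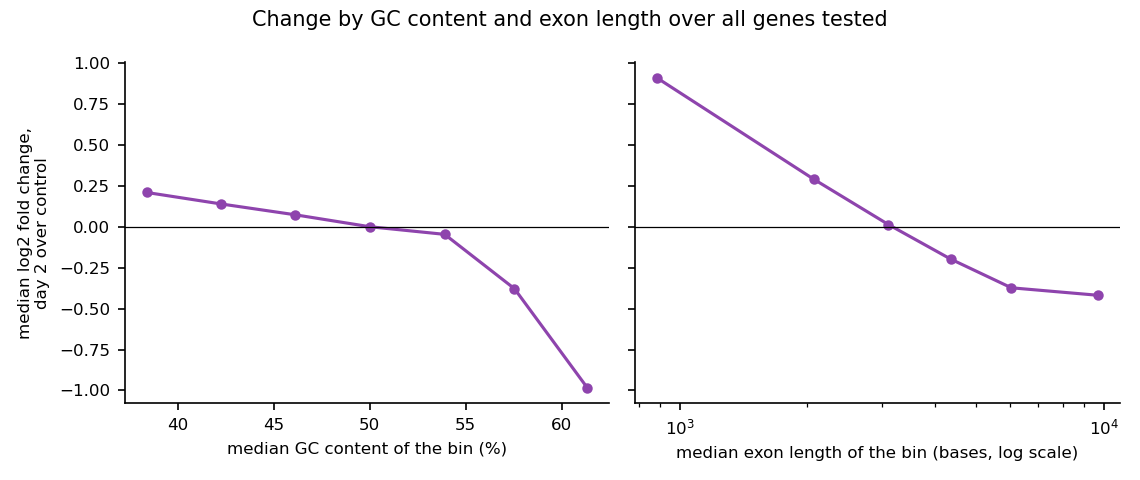
Median log2 fold change of day 2 monocytes over control monocytes (y axis) for all genes tested, in 7 bins of exon GC content (left, percent) and in sixths of summed exon length (right, bases, log scale). Each point is the median of a bin. Genes with over 60% GC sit at -0.98, and medians run from 0.91 for the shortest to -0.42 for the longest sixth.

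Genes of monocyte identity were looked at first. Both groups were defined as Ly6C-high, so Ly6c2 is not an independent check of identity. Transcripts of the Ly6C antigen did not pass the test, with Ly6c2 at 1393, 1778 and 1563 CPM at day 2, against 1229, 2406 and 1291 CPM in controls (log2 fold change -0.06 ± 0.61, adjusted p = 0.97). Ccr2, the receptor for entry into tissue, was at 2771, 2626 and 2609 CPM at day 2, against 1644, 1644 and 1917 CPM in controls (log2 fold change 0.62 ± 0.39, adjusted p = 0.24). Lyz2, lysozyme, was at 77794, 64918 and 54127 CPM at day 2, against 50107, 95451 and 50492 CPM in controls (log2 fold change 0.01 ± 0.29, adjusted p = 1.00). Libraries of the 2 groups overlapped for Ly6c2 and Lyz2, and all 3 day 2 libraries lay above the controls for Ccr2. Plac8 (adjusted p = 0.87) and the coagulation factor subunit F13a1 (adjusted p = 0.93) did not pass either. The growth factor receptor Csf1r was at 1278, 855 and 1278 CPM at day 2, against 2338, 1371 and 2711 CPM in controls (log2 fold change -0.91 ± 0.39, adjusted p = 0.091). Cx3cr1, the fractalkine receptor by which both groups were defined, fell. It was at 82.1, 91.4 and 69.7 CPM at day 2, against 556, 437 and 512 CPM in controls (log2 fold change -2.63 ± 0.38, adjusted p = 4.6e-05), with every day 2 library below every control. With the exon length offset Lyz2 was called lower (log2 fold change -0.60, adjusted p = 0.046, and -0.63, adjusted p = 0.035, with the length and GC offset).

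**Figure D2:**
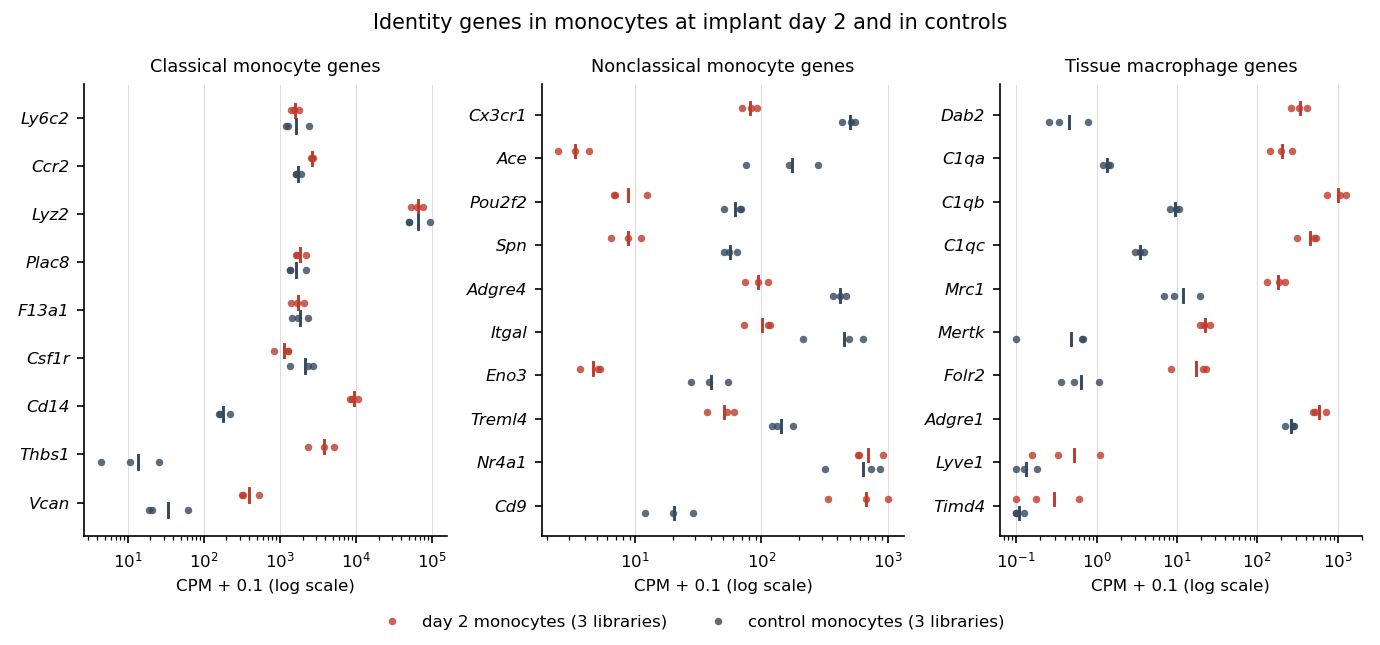
Levels of classical monocyte, nonclassical monocyte and tissue macrophage genes by library, as CPM + 0.1 on a log axis, with 3 day 2 monocyte libraries above 3 control libraries for each gene and a bar at each group's mean. The groups overlap for Ly6c2 and Lyz2, Cx3cr1 and Ace lie lower at day 2, and Dab2, C1qa, C1qb and C1qc lie higher.

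Over the list of classical monocyte genes, 11 of 29 tested were higher, 0 lower and 18 did not pass, with a median log2 fold change of 0.84, against 15.5% higher and 11.5% lower of all genes. Cd14, the lipopolysaccharide co-receptor, was at 10750, 8865 and 8496 CPM at day 2, against 220.1, 164 and 162 CPM in controls (log2 fold change 5.69 ± 0.28, adjusted p = 2.2e-11). Thbs1, the matrix glycoprotein thrombospondin-1, was at 5115, 2388 and 3842 CPM at day 2, against 10.6, 4.35 and 25.6 CPM in controls (log2 fold change 8.13 ± 0.87, adjusted p = 1.1e-06). Clec4e, the lectin receptor Mincle, was at 2102, 1733 and 1650.3 CPM at day 2, against 56.1, 64.6 and 73.4 CPM in controls (log2 fold change 4.82 ± 0.36, adjusted p = 6.9e-09). The groups did not overlap for these 3 genes, and Cd14 was within a narrow range in each group. The proteoglycan Vcan (log2 fold change 3.54 ± 0.56) and the transcription factors Cebpb (2.09 ± 0.47, 3.44 with the length and GC offset) and Klf4 (1.92 ± 0.36) rose as well. Without control A 7 were higher, and the median was 0.44 with the length and GC offset.

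Nonclassical monocyte genes moved in both directions. Of that list, 8 of 25 tested were higher, 9 lower and 8 did not pass, with a median log2 fold change of -0.55. Ace, angiotensin-converting enzyme, was at 2.36, 4.17 and 3.2 CPM at day 2, against 164, 76.01 and 281 CPM in controls (log2 fold change -5.73 ± 0.75, adjusted p = 1.3e-05). The transcription factor Pou2f2 was at 6.76, 12.3 and 6.64 CPM at day 2, against 67.01, 50.4 and 68.5 CPM in controls (log2 fold change -2.85 ± 0.34, adjusted p = 4.2e-06). Spn, the surface sialoprotein CD43, was at 10.9, 8.73 and 6.35 CPM at day 2, against 54.9, 50.1 and 63.9 CPM in controls (log2 fold change -2.70 ± 0.42, adjusted p = 9.6e-05). Every day 2 library was below every control for these genes. The adhesion receptor Adgre4 (-2.17 ± 0.40), the integrin Itgal (-2.17 ± 0.54), the lectin-like receptor Treml4 (-1.51 ± 0.35) and the enolase Eno3 (-3.14 ± 0.39) fell. S1pr5, a sphingosine 1-phosphate receptor that nonclassical monocytes need to leave the marrow in mice, was at 0.236, 0.278 and 0.143 CPM at day 2, against 31.8, 51.5 and 41.9 CPM in controls (log2 fold change -7.56 ± 1.44, adjusted p = 0.00091). Nr4a1, the factor on which their development depends, was at 594, 588 and 921 CPM at day 2, against 868, 318 and 743 CPM in controls (log2 fold change 0.12 ± 0.41, adjusted p = 0.86), and the groups overlapped. Among the list's risers were the tetraspanin Cd9 at 1005, 678 and 335 CPM at day 2, against 19.8, 28.7 and 11.8 CPM in controls (log2 fold change 5.06 ± 0.48, adjusted p = 2.1e-07) and the fatty acid transporter Cd36 (3.14 ± 0.52).

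The 12 largest fitted rises were taken over called genes that averaged 10 CPM or more at day 2 with groups apart. Arginase 1, Arg1, was at 3345, 1907 and 821 CPM at day 2, against 0.458, 0.796 and 0.947 CPM in controls (log2 fold change 11.42 ± 0.80, adjusted p = 2.6e-09). The inducible nitric oxide synthase Nos2 was at 40.04, 29.7 and 24.3 CPM at day 2, against 0.0218, 0 and 0 CPM in controls (3778-fold higher, 95% counting interval 677 to 149320, adjusted p = 2.4e-05). Both use arginine, and both were under 1 CPM in all 3 controls. Asprv1, a retroviral-like aspartic protease, was at 74.8, 33.7 and 63.7 CPM at day 2, against 0, 0 and 0 CPM in controls (at least 2348-fold higher, adjusted p = 4e-05). Ppbp, the CXC chemokine of platelet granules, was at 75.2, 67.8 and 15.8 CPM at day 2, against 0, 0 and 0 CPM in controls (at least 2035-fold higher, adjusted p = 1.9e-07). Flrt3, an adhesion protein with leucine-rich repeats, was at 182, 52.4 and 104 CPM at day 2, against 0, 0.0265 and 0 CPM in controls (13252-fold higher, 95% counting interval 2377 to 523500, adjusted p = 4.9e-09). Detection of these 5 genes in each day 2 library follows from the choice of genes with groups apart. Podoplanin, Pdpn, a mucin-type glycoprotein that binds the platelet receptor Clec2, was at 42.8, 27.02 and 8.41 CPM at day 2, against 0, 0 and 0 CPM in controls (at least 979-fold higher, adjusted p = 1.1e-08). Cdh1, E-cadherin, which takes part in macrophage fusion, was at 11.2, 8.67 and 17.1 CPM at day 2, against 0, 0 and 0 CPM in controls (at least 533-fold higher, adjusted p = 0.00028). Il33, an alarmin cytokine, was at 26.1, 1.89 and 4.63 CPM at day 2, against 0, 0 and 0 CPM in controls (at least 376-fold higher, adjusted p = 0.00039), with library A the highest. The transporter Slc4a11 (at least 900.5-fold higher, adjusted p = 1.7e-07), the stefin Stfa2l1 (at least 752-fold higher, adjusted p = 9.8e-05), the retinol dehydrogenase Dhrs9 (at least 693-fold higher, adjusted p = 1.1e-06) and the small GTPase Rhov (5096-fold higher, 95% counting interval 914 to 201380, adjusted p = 9.1e-06) completed the set. Bounds are set against 3 counts over the control group, and these intervals and bounds cover counting error only. Stefin genes lie in a cluster of near-identical copies, so their counts are uncertain, as are those of Ly6c1 and Ly6c2.

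The 12 largest falls held granule proteins of neutrophil precursors. Camp, cathelicidin, was at 0.393, 0.0556 and 0.43 CPM at day 2, against 324, 413 and 219.7 CPM in controls (log2 fold change -10.07 ± 1.08, adjusted p = 2.5e-06, -10.71 with the length and GC offset). Ltf, lactoferrin, was at 1.1, 2.83 and 1.91 CPM at day 2, against 447, 343 and 348 CPM in controls (log2 fold change -7.58 ± 1.02, adjusted p = 1.9e-05). Ngp, neutrophilic granule protein, was at 3.3, 6.67 and 12.4 CPM at day 2, against 1152, 1394 and 779.8 CPM in controls (log2 fold change -7.20 ± 0.93, adjusted p = 1.1e-05). All 3 were abundant in each control and at no more than 12.4 CPM in any day 2 library. Myeloperoxidase, Mpo, was at 1.81, 0.334 and 0.955 CPM at day 2, against 32.9, 39.9 and 30.7 CPM in controls (log2 fold change -5.08 ± 0.95, adjusted p = 0.00062). Jchain, the joining chain of secreted antibodies, was at 0.0787, 0.0556 and 0.0478 CPM at day 2, against 115, 44.7 and 44.9 CPM in controls (1213-fold lower, 95% counting interval 415 to 5882, adjusted p = 9.7e-06). S1pr5 and Ace, given above, belonged to this set, as did the plexin domain protein Plxdc1 (log2 fold change -5.50 ± 1.01, adjusted p = 0.00053), Fam98c (log2 fold change -5.35 ± 1.34, adjusted p = 0.006), the apelin receptor Aplnr (log2 fold change -4.98 ± 1.72, adjusted p = 0.036), Ccdc102a (log2 fold change -4.75 ± 1.23, adjusted p = 0.0075, -3.99 with the length and GC offset) and the kinase Dyrk3 (log2 fold change -4.71 ± 1.13, adjusted p = 0.0051). For Aplnr, the call was lost without day 2 A, day 2 C, control A or control C (adjusted p up to 0.11 over the alternatives).

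Among called genes, the 5 with the highest mean CPM at day 2 were Spp1, Actb, Cd14, Ccl6 and Ctss, and in controls Psap, Actb, Ctss, Cybb and Fos. For Actb, the call was lost without control A (adjusted p up to 0.055 over the alternatives), and for Psap, the call was lost without day 2 A, day 2 B, day 2 C, control A or control C, with the GC offset or with the length and GC offset (adjusted p up to 0.11 over the alternatives). Ctss rose (log2 fold change 1.25 ± 0.25, adjusted p = 0.00089, 0.53 with the length and GC offset), and the call was lost with the replicate block, length and GC terms (adjusted p up to 0.057 over the alternatives). Spp1, osteopontin, a secreted matricellular protein that binds integrins, was at 16779, 12172 and 3623 CPM at day 2, against 4.49, 12.6 and 5.94 CPM in controls (log2 fold change 10.47 ± 0.83, adjusted p = 1.5e-08, 9.79 with the length and GC offset). Per length, Spp1 was at 6589 CPM per kilobase of exon at day 2 and 4.66 in controls, and the protease cathepsin S (Ctss) at 5075 CPM per kilobase of exon at day 2 and 2129 in controls. By library, Spp1 was above Ctss per length in day 2 A and day 2 B, and below it in day 2 C and in all 3 controls.

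Neutrophil genes went both ways. Of the neutrophil list, 10 of 22 tested were higher, 4 lower and 8 did not pass, with a median log2 fold change of 1.87. Retnlg, a resistin-like protein, was at 317, 85.9 and 219.7 CPM at day 2, against 1.09, 0.531 and 1.11 CPM in controls (log2 fold change 7.82 ± 0.94, adjusted p = 4.9e-06, 6.75 with the length and GC offset). Cxcr2, the chemokine receptor for neutrophil recruitment, was at 40.4, 16.8 and 58.3 CPM at day 2, against 1.68, 0 and 1.61 CPM in controls (log2 fold change 5.12 ± 1.38, adjusted p = 0.0097). The neutrophil antigen Ly6g was at 5.51, 4.002 and 9.12 CPM at day 2, against 1.13, 1.49 and 0.379 CPM in controls (log2 fold change 2.63 ± 0.83, adjusted p = 0.026, 1.96 with the length and GC offset). Library B was the lowest of the 3 day 2 libraries for each of these, and no day 2 library overlapped a control. For Ly6g, the call was lost without day 2 C, control A or control C, with the length offset or with the length and GC offset (adjusted p up to 0.12 over the alternatives). Mmp9, gelatinase B, was at 126, 46.1 and 119 CPM at day 2, against 1.72, 0.0265 and 0.26 CPM in controls (log2 fold change 7.14 ± 1.03, adjusted p = 4.1e-05). The alarmins S100a8 at 2345, 865 and 1288 CPM at day 2, against 595, 804 and 411 CPM in controls (log2 fold change 1.31 ± 0.65, adjusted p = 0.14, 0.24 with the length and GC offset) and S100a9 (log2 fold change 1.24 ± 0.65, adjusted p = 0.16, 0.14 with the length and GC offset) did not pass, nor did lipocalin-2, Lcn2 (log2 fold change 0.33 ± 0.65, adjusted p = 0.75). Of the promyelocyte proteases, 0 of 10 tested were higher, 4 lower and 6 did not pass, with a median log2 fold change of -1.60. Beside Mpo, elastase (Elane) was at 0.315, 1.78 and 4.16 CPM at day 2, against 43.9, 55.6 and 29.8 CPM in controls (log2 fold change -4.35 ± 1.24, adjusted p = 0.015). The serine protease Prss57 had 0 counts at day 2 (at least 53.8-fold lower, adjusted p = 0.013). For Elane, the call was lost without day 2 A or day 2 B or in DESeq2 (adjusted p up to 0.076 over the alternatives), and for Prss57, the call was lost in DESeq2 (adjusted p up to 0.29 over the alternatives). In DESeq2 1 member was lower. The summed level of the neutrophil list was 5995, 2656 and 4075 CPM at day 2, against 3636, 4356 and 2847 CPM in controls. Transcripts of listed genes, S100a8 among them, were thus present in both groups, and the sum does not tell which cells held them. In bulk libraries, fewer cells of a type and less RNA per cell cannot be told apart. The part of neutrophil RNA in the other results was not tested.

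Most inflammatory cytokine genes rose. Of the cytokine list, 18 of 28 tested were higher, 2 lower and 8 did not pass, with a median log2 fold change of 3.98 (3.41 with genes at 0 counts set to their bound). Il1b, interleukin-1 beta, was at 8971, 6509 and 5078 CPM at day 2, against 113, 96.2 and 112 CPM in controls (log2 fold change 6.00 ± 0.54, adjusted p = 9.1e-08). Osm, oncostatin M, was at 548, 823 and 809.9 CPM at day 2, against 28.1, 21.3 and 36.7 CPM in controls (log2 fold change 4.66 ± 0.32, adjusted p = 2.1e-09). Il1rn, the antagonist of the interleukin-1 receptor, was at 1339.9, 779.9 and 782 CPM at day 2, against 23.04, 37.8 and 39.8 CPM in controls (log2 fold change 4.85 ± 0.38, adjusted p = 1.2e-08). Day 2 libraries differed among themselves by less than the gap to the controls for all 3. Il1a was at 117, 49.9 and 49 CPM at day 2, against 0.327, 0 and 0 CPM in controls (log2 fold change 9.22 ± 1.17, adjusted p = 9e-06, 8.54 with the length and GC offset). Tnfsf9, the ligand of the costimulator 4-1BB, was at 94.6, 187 and 104 CPM at day 2, against 4.51, 1.78 and 2.79 CPM in controls (log2 fold change 5.40 ± 0.39, adjusted p = 4.8e-09, 4.75 with the length and GC offset). Il6 was at 18.4, 16.8 and 6.73 CPM at day 2, against 0.218, 0.159 and 0 CPM in controls (log2 fold change 6.73 ± 0.93, adjusted p = 2.4e-05). Tnf was at 87.5, 42.7 and 46.8 CPM at day 2, against 5.65, 12.1 and 6.3 CPM in controls (log2 fold change 2.88 ± 0.48, adjusted p = 0.00018). None of these 4 overlapped between the groups. Il10, an anti-inflammatory cytokine, was at 5.98, 8.12 and 5.4 CPM at day 2, against 0, 0 and 0.0237 CPM in controls (816-fold higher, 95% counting interval 145 to 32327, adjusted p = 5.2e-05). Csf1, the macrophage growth factor, rose (2.29 ± 0.52), as did macrophage migration inhibitory factor, Mif (3.94 ± 0.58), and Il18 (2.25 ± 0.32, 1.36 with the length and GC offset). Il16 was at 21.6, 28.5 and 23.8 CPM at day 2, against 172, 158 and 158 CPM in controls (log2 fold change -2.73 ± 0.30, adjusted p = 1.5e-06). Tgfb1, the main profibrotic cytokine, was at 15.7, 27.8 and 66.2 CPM at day 2, against 202, 114 and 218 CPM in controls (log2 fold change -2.28 ± 0.61, adjusted p = 0.0096). Every day 2 library was below every control for Il16 and Tgfb1, and day 2 A held the least Tgfb1. For Tgfb1, the call was lost without day 2 A (adjusted p up to 0.052 over the alternatives). Interferon beta (Ifnb1) was at no more than 0.265 CPM in any of the 6 libraries.

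**Figure D3:**
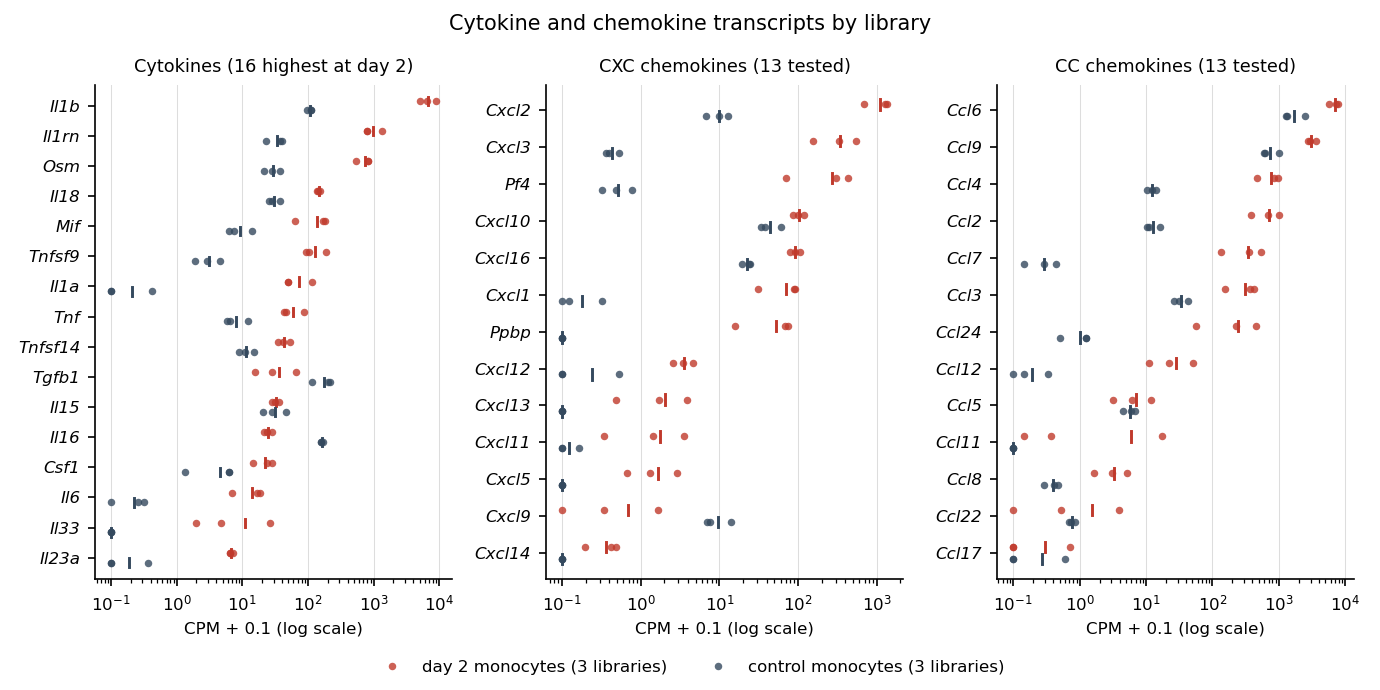
Cytokine, CXC chemokine and CC chemokine transcripts by library, as CPM + 0.1 on a log axis, with 3 day 2 monocyte libraries above 3 control libraries for each gene and a bar at each group's mean. Il1b, Cxcl2 and Ccl7 lie far higher at day 2, Tgfb1, Il16 and Cxcl9 lie lower, and Il15 and Ccl5 overlap.

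Among CXC chemokines, 10 of 13 tested were higher, 0 lower and 3 did not pass, with a median log2 fold change of 6.84 (5.84 with genes at 0 counts set to their bound). Cxcl1, Cxcl2 and Cxcl3 draw neutrophils through Cxcr2. Cxcl2 was at 1287, 1358 and 682 CPM at day 2, against 6.63, 9.77 and 12.6 CPM in controls (log2 fold change 6.84 ± 0.46, adjusted p = 1.8e-09). Cxcl3 was at 541, 331 and 156 CPM at day 2, against 0.262, 0.292 and 0.426 CPM in controls (log2 fold change 10.01 ± 0.90, adjusted p = 9.5e-08). Cxcl1 was at 90.5, 88.8 and 30.8 CPM at day 2, against 0.218, 0 and 0.0237 CPM in controls (log2 fold change 9.59 ± 1.00, adjusted p = 8.2e-07, 8.98 with the length and GC offset). Library C held the least of each at day 2 and still lay above every control. Pf4, platelet factor 4, which tissue macrophages also make, was at 428, 304 and 70.9 CPM at day 2, against 0.218, 0.664 and 0.379 CPM in controls (log2 fold change 9.32 ± 0.69, adjusted p = 6.1e-09, 8.43 with the length and GC offset). Cxcl16, the membrane-bound ligand of Cxcr6, was at 79.5, 91.2 and 106 CPM at day 2, against 19.1, 23.9 and 24.1 CPM in controls (log2 fold change 2.04 ± 0.32, adjusted p = 0.00011). The interferon-induced Cxcl10 (log2 fold change 1.21 ± 0.69, adjusted p = 0.2) and Cxcl9 (log2 fold change -3.94 ± 1.67, adjusted p = 0.085) did not pass, and Cxcl9 was at 0, 1.56 and 0.239 CPM at day 2, against 7.45, 14.1 and 6.84 CPM in controls. Without control C 7 were higher. Pf4 and Ppbp also stand in the erythroid and platelet list. Of the 9 members of that list tested, 2 were higher, Pf4 and Ppbp, and 7 did not pass, against 15.5% higher of all genes. The fitted log2 fold change was positive for 8 members and negative for 1, the platelet integrin chain Itga2b. Itga2b had 0 counts in each day 2 library and did not pass (log2 fold change -5.22, adjusted p = 0.15). Gp9 did not pass either (log2 fold change 1.63, adjusted p = 0.61). The list's sum was 2588, 511 and 89.03 CPM at day 2, against 36.6, 178 and 24.4 CPM in controls, and hemoglobin chains made up most of it in day 2 A. Hbb-bs was at 518, 39.2 and 0.716 CPM at day 2, against 8.11, 39.2 and 6.11 CPM in controls (log2 fold change 3.38 ± 1.49, adjusted p = 0.096, 2.58 with the length and GC offset), and its near-identical copies share reads. Its part in the chemokine results was not tested.

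Cxcl1, Cxcl2 and Cxcl3 are neighbours on chromosome 5. The 120 bases before the annotated start of each are shown because all 3 hold the NF-kB motif GGGANTTTC, in capitals, as promoters in RefSeq's table of GRCm38.p6. Cxcl1 is at chr5:90891125-90891244 on the plus strand, Cxcl2 at chr5:90903779-90903898 on the plus strand and Cxcl3 at chr5:90785981-90786100 on the plus strand.
Cxcl1: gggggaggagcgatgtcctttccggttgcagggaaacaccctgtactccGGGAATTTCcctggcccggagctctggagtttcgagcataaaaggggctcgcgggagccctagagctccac
Cxcl2: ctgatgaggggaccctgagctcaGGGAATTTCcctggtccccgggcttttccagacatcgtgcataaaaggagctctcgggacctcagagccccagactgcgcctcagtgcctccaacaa
Cxcl3: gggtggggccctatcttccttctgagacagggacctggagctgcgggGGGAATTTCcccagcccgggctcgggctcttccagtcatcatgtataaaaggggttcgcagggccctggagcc
Searched on both strands, the motif was in 3 of the 7 called CXC chemokines with a promoter in the table, in 2 of 13 higher cytokines and in 1.11% of 32851 promoter windows of 300 bases. It was in 1.23% of the 11047 tested genes with a promoter. A match is a run of letters and not a measured binding site.

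CC chemokines showed a like pattern, and of these 10 of 13 tested were higher, 0 lower and 3 did not pass, with a median log2 fold change of 3.44 (2.42 with the length and GC offset). Ccl7, a Ccr2 ligand, was at 361, 537 and 135 CPM at day 2, against 0.196, 0.345 and 0.0473 CPM in controls (log2 fold change 10.76 ± 0.80, adjusted p = 6.3e-09, 9.68 with the length and GC offset). Ccl2, the main Ccr2 ligand, was at 695, 1022 and 385 CPM at day 2, against 11.2, 16.4 and 10.4 CPM in controls (log2 fold change 5.79 ± 0.55, adjusted p = 2.1e-07, 4.85 with the length and GC offset). Ccl4, which draws monocytes and T cells, was at 979, 849 and 461 CPM at day 2, against 12.3, 14.2 and 10.1 CPM in controls (log2 fold change 5.97 ± 0.71, adjusted p = 4.2e-06, 5.05 with the length and GC offset). Day 2 library C was the lowest for Ccl7 and Ccl2, above all controls. Ccl24, an eotaxin, was at 450.4, 223 and 55.98 CPM at day 2, against 0.414, 1.14 and 1.16 CPM in controls (log2 fold change 8.07 ± 0.76, adjusted p = 1.8e-07, 7.44 with the length and GC offset). The mouse chemokine Ccl12 was at 22.3, 51.7 and 10.98 CPM at day 2, against 0, 0.239 and 0.0473 CPM in controls (log2 fold change 8.22 ± 1.00, adjusted p = 5.5e-06, 7.09 with the length and GC offset). Ccl6 was at 7275, 7816 and 5672 CPM at day 2, against 1309, 2478 and 1273 CPM in controls (log2 fold change 2.04 ± 0.31, adjusted p = 6.4e-05). Ccl9 was at 3566, 2967 and 2755 CPM at day 2, against 617, 1020.4 and 601 CPM in controls (log2 fold change 2.05 ± 0.24, adjusted p = 3.1e-06), so both were already high in controls. Ccl5 (log2 fold change 0.31 ± 0.87, adjusted p = 0.83, -0.45 with the length and GC offset), Ccl17 (adjusted p = 0.94) and Ccl22 (adjusted p = 0.58) did not pass.

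Receptors for these signals also changed, and of the receptor list 13 of 24 tested were higher, 4 lower and 7 did not pass, with a median log2 fold change of 2.22 (1.57 with the length and GC offset). C5ar1, the receptor for the complement fragment C5a, was at 1533, 1224 and 1811 CPM at day 2, against 18.6, 26.5 and 22.8 CPM in controls (log2 fold change 6.07 ± 0.29, adjusted p = 1.9e-11). Ccr1 was at 1485, 1206 and 1471 CPM at day 2, against 29.5, 20.1 and 33.2 CPM in controls (log2 fold change 5.65 ± 0.39, adjusted p = 2.1e-09). The formyl peptide receptor Fpr1, which senses bacterial and mitochondrial peptides, was at 217, 119 and 119 CPM at day 2, against 0.85, 4.25 and 2.11 CPM in controls (log2 fold change 5.99 ± 0.65, adjusted p = 1.4e-06, 5.30 with the length and GC offset). The lowest day 2 library was far above the highest control for each of the 3. The chemerin-binding Ccrl2 (3.37 ± 0.32) rose. The integrin chain Itga4 fell (-2.03 ± 0.35), as did Cx3cr1 and S1pr5.

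Many sensors of microbes and damage were higher, and of that list 17 of 33 tested were higher, 4 lower and 12 did not pass, with a median log2 fold change of 0.87. Trem1, an amplifier of Toll-like receptor signals, was at 776, 519.9 and 975 CPM at day 2, against 2.4, 2.55 and 7.83 CPM in controls (log2 fold change 7.47 ± 0.69, adjusted p = 1.5e-07). Clec4d, the lectin partner of Mincle, was at 753, 507 and 339.6 CPM at day 2, against 4.93, 8.47 and 5.18 CPM in controls (log2 fold change 6.43 ± 0.46, adjusted p = 4e-09, 5.66 with the length and GC offset). Clec4n, Dectin-2, was at 1237, 752 and 557 CPM at day 2, against 13.6, 19.1 and 16.5 CPM in controls (log2 fold change 5.69 ± 0.40, adjusted p = 2.7e-09, 4.93 with the length and GC offset). All day 2 values were above all control values for the 3. Tlr2 was at 753, 515 and 871 CPM at day 2, against 134, 97.8 and 129 CPM in controls (log2 fold change 2.57 ± 0.33, adjusted p = 1.1e-05), and Tlr4 (2.11 ± 0.47) and its partner Ly96 (1.59 ± 0.34, 0.57 with the length and GC offset) rose. The endosomal RNA sensor Tlr7 (-1.81 ± 0.32), the DNA sensor Aim2 (-1.48 ± 0.36) and Nod1 (-3.08 ± 0.52, -2.48 with the length and GC offset), which senses peptidoglycan, fell. Without control A 12 were higher. Among Fc gamma receptors and their chain, 5 of 8 tested were higher, 1 lower and 2 did not pass, with a median log2 fold change of 1.52. Fcgr4 was at 231, 149 and 165 CPM at day 2, against 12.6, 18.5 and 17.8 CPM in controls (log2 fold change 3.48 ± 0.43, adjusted p = 7.1e-06, 2.77 with the length and GC offset), and Fcgr1 (2.70 ± 0.36), the inhibitory Fcgr2b (2.03 ± 0.27) and Fcgr3 (1.66 ± 0.25) rose, while the kinase Syk fell (-1.61 ± 0.30).

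Most genes induced when oxygen is low were higher at day 2. Of the list of hypoxia targets, 13 of 22 tested were higher, 0 lower and 9 did not pass, with a median log2 fold change of 2.11. Hilpda, a lipid droplet protein, was at 567, 766 and 302 CPM at day 2, against 3.36, 6.8 and 5.04 CPM in controls (log2 fold change 6.75 ± 0.48, adjusted p = 3.5e-09, 6.08 with the length and GC offset). Slc2a1, the glucose transporter Glut1, was at 589.7, 383 and 546 CPM at day 2, against 17.9, 24.7 and 35.3 CPM in controls (log2 fold change 4.28 ± 0.36, adjusted p = 3.8e-08). Bnip3, a mitophagy receptor, was at 565, 404 and 197 CPM at day 2, against 18.2, 25.4 and 17.1 CPM in controls (log2 fold change 4.26 ± 0.38, adjusted p = 9.9e-08). Day 2 and control libraries were fully apart for these. Vegfa, the vessel growth factor, was at 113, 85.2 and 54.97 CPM at day 2, against 0.654, 0.929 and 1.87 CPM in controls (log2 fold change 6.19 ± 0.72, adjusted p = 3.1e-06). Ankrd37 was at 44.05, 104 and 61.4 CPM at day 2, against 1.22, 2.28 and 1.04 CPM in controls (log2 fold change 5.53 ± 0.43, adjusted p = 1.1e-08). The collagen prolyl hydroxylase subunit P4ha1 was at 279.8, 183 and 172 CPM at day 2, against 40.9, 48.1 and 31.1 CPM in controls (log2 fold change 2.4 ± 0.29, adjusted p = 4.2e-06). Egln3, an oxygen sensor that is itself induced by hypoxia, was at 30.1, 85.5 and 78.3 CPM at day 2, against 0.262, 1.19 and 0.757 CPM in controls (log2 fold change 6.46 ± 0.80, adjusted p = 7.2e-06). The factor Hif1a rose at the transcript level (log2 fold change 2.41 ± 0.46, adjusted p = 0.00071). Not every known target passed, and Pdk1 (log2 fold change 0.14 ± 0.45, adjusted p = 0.86), Car9 (log2 fold change 0.59 ± 0.45, adjusted p = 0.35) and Ndrg1 (log2 fold change 0.54 ± 0.37, adjusted p = 0.29) did not pass.

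Promoter sequences of 5 called members, chosen after their values were seen, are shown because their 120 bases before the start hold the core of the hypoxia response element, ACGTG, in capitals. Slc2a1 is at chr4:119108625-119108744 on the plus strand, Hilpda at chr6:29272506-29272625 on the plus strand, Bnip3 at chr7:138909507-138909626 on the minus strand, Ankrd37 at chr8:45999851-45999970 on the minus strand and P4ha1 at chr10:59323176-59323295 on the plus strand, all in GRCm38.p6 from RefSeq's table.
Slc2a1: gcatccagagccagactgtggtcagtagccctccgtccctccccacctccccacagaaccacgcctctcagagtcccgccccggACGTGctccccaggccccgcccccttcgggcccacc
Hilpda: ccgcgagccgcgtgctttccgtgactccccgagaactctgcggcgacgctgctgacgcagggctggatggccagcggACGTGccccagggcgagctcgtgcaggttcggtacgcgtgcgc
Bnip3: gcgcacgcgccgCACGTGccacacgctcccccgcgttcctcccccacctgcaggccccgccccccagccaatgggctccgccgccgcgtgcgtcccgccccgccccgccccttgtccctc
Ankrd37: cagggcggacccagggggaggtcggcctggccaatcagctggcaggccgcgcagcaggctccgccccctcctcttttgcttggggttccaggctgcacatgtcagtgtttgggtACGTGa
P4ha1: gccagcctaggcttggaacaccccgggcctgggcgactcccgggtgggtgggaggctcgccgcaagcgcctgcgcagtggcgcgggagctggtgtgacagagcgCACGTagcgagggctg
In Bnip3 the core was read on both strands of the same overlapping stretch, and in P4ha1 on the reverse strand. Over windows of 300 bases, searched on both strands, 12 of the 13 called members had the core in at least 1 of their promoters (13 of 17 promoters). It was in 19.6% of all 32851 windows and in 28.4% of tested genes with a promoter. The match is a description of sequence, and no factor was measured there.

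Glycolysis followed the same direction, and of its list 17 of 24 tested were higher, 0 lower and 7 did not pass, with a median log2 fold change of 1.96. Ldha, lactate dehydrogenase, was at 4449, 3099 and 2626 CPM at day 2, against 345, 417 and 338 CPM in controls (log2 fold change 3.21 ± 0.24, adjusted p = 6.8e-09). Tpi1, triosephosphate isomerase, was at 1717, 1288 and 945 CPM at day 2, against 112, 162 and 123 CPM in controls (log2 fold change 3.31 ± 0.26, adjusted p = 1.2e-08). Slc16a3, the lactate exporter, was at 467, 397 and 647 CPM at day 2, against 65.7, 40.1 and 79.3 CPM in controls (log2 fold change 3.03 ± 0.44, adjusted p = 4.7e-05, 3.62 with the length and GC offset). All 3 day 2 libraries exceeded all controls. Aldoa (2.10 ± 0.25), Pkm (1.70 ± 0.26, 2.38 with the length and GC offset), Eno1 (1.67 ± 0.21, 2.31 with the length and GC offset) and Gapdh (2.58 ± 0.26) rose as well, and Gapdh has many processed copies, which makes its count uncertain. The hexokinases Hk1 (log2 fold change 0.22 ± 0.45, adjusted p = 0.76, 0.85 with the length and GC offset), Hk2 (log2 fold change 0.84 ± 0.33, adjusted p = 0.068) and Hk3 (log2 fold change -0.27 ± 0.42, adjusted p = 0.66) did not pass. With the length offset Hk2 was called higher (log2 fold change 1.08, adjusted p = 0.017, and 1.16, adjusted p = 0.012, with the length and GC offset).

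Most tissue macrophage genes were higher in day 2 monocytes, and of these 21 of 34 tested were higher, 1 lower and 12 did not pass, with a median log2 fold change of 3.05. Dab2, an endocytic adaptor, was at 414, 262 and 332 CPM at day 2, against 0.676, 0.159 and 0.237 CPM in controls (log2 fold change 9.83 ± 0.60, adjusted p = 5.9e-10). C1qb, a chain of the first complement component, was at 1068, 1252 and 728 CPM at day 2, against 8.04, 10.6 and 9.56 CPM in controls (log2 fold change 6.75 ± 0.42, adjusted p = 5.9e-10). Stab1, a scavenger receptor, was at 64.1, 69.8 and 81.3 CPM at day 2, against 1.57, 1.17 and 0.189 CPM in controls (log2 fold change 6.19 ± 0.53, adjusted p = 4.5e-08, 6.78 with the length and GC offset). Control monocytes held almost none of Dab2 and Stab1. The mannose receptor Mrc1 was at 219.8, 185 and 131 CPM at day 2, against 19.1, 9.11 and 6.72 CPM in controls (log2 fold change 3.94 ± 0.49, adjusted p = 7.1e-06). The apoptotic cell receptor Mertk was at 25.7, 19.2 and 21.9 CPM at day 2, against 0.567, 0.584 and 0 CPM in controls (log2 fold change 5.84 ± 0.66, adjusted p = 2.1e-06). Adgre1, the F4/80 antigen, was at 721, 526 and 488 CPM at day 2, against 289, 223 and 274 CPM in controls (log2 fold change 1.14 ± 0.25, adjusted p = 0.002). Of the markers of long-term residents, Lyve1, Timd4 and Vsig4 were low in both groups. Lyve1 was at 0.236, 0.0556 and 1.003 CPM at day 2, against 0, 0.0796 and 0.0237 CPM in controls (log2 fold change 3.63 ± 1.43, adjusted p = 0.065). Timd4 was at 0.0787, 0.5 and 0 CPM at day 2, against 0, 0.0265 and 0 CPM in controls and Vsig4 at 0 counts in all 6 libraries. Cd163 (log2 fold change 0.45 ± 0.61, adjusted p = 0.62) and Apoe (log2 fold change -0.11 ± 0.72, adjusted p = 0.94) did not pass. Siglec1, sialoadhesin, fell (log2 fold change -1.06 ± 0.39, adjusted p = 0.048, -0.36 with the length and GC offset), but the groups overlapped and the call was lost without day 2 A, day 2 B, day 2 C, control A or control C, with RLE factors, in a fit of both groups alone, with the replicate block, with the length offset, with the GC offset or with the length and GC offset (adjusted p up to 0.49 over the alternatives).

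In macrophages fewer members of the same list were higher, with 3 of 34 higher and 18 lower at day 2 than in macrophage controls. Of all genes in macrophages, 10.1% were higher and 7.1% lower. The test of the difference in day 2 change between monocytes and macrophages called 25 of the list higher and 1 lower, against 2.42% and 1.37% of all genes. Dab2 was at 346, 500.1 and 515 CPM in day 2 macrophages, against 1238 and 1021 CPM in control macrophages (difference in log2 fold change 11.15 ± 0.72, adjusted p = 7.2e-09). C1qb was at 2994, 5091 and 3273 CPM in day 2 macrophages, against 5862 and 8109 CPM in control macrophages (difference in log2 fold change 7.64 ± 0.52, adjusted p = 1.2e-08), and Mrc1 at 214, 302 and 225 CPM in day 2 macrophages, against 1601 and 1014 CPM in control macrophages (difference in log2 fold change 6.34 ± 0.68, adjusted p = 8.9e-06). At day 2 the macrophages still held more C1qb than the monocytes in every library. The control macrophages number only 2, and the lower count of this test over all genes, 222, was 109 without control macrophage A and 131 without control macrophage B.

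**Figure D4:**
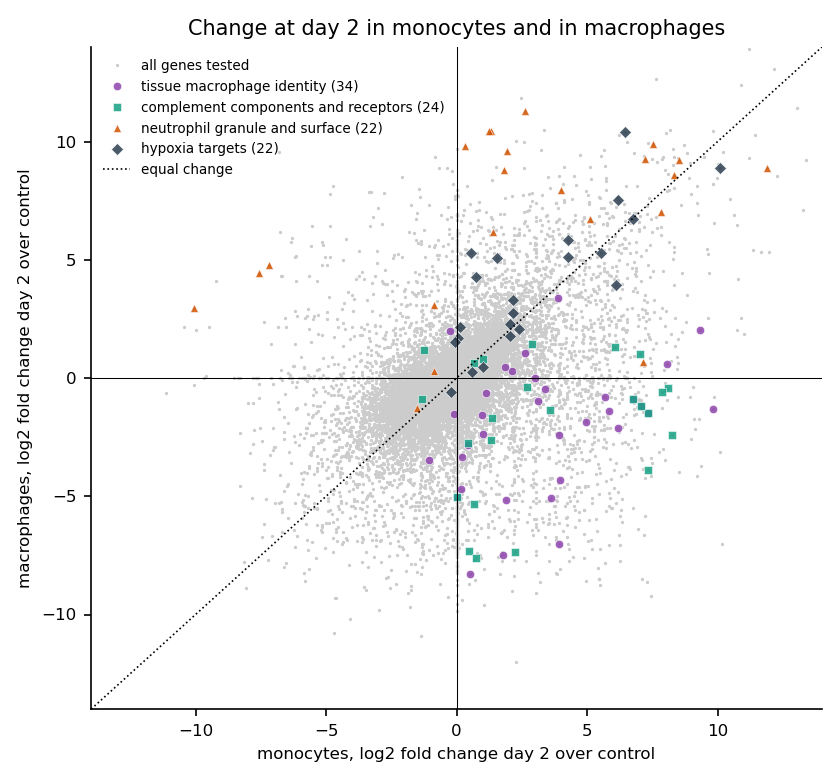
Fitted log2 fold change of day 2 over control in monocytes (x axis) and in macrophages (y axis) for all genes tested (grey), with 4 gene lists in colour and a dotted line of equal change. Tissue macrophage and complement genes mostly lie right of 0 and below the line, neutrophil genes mostly above it and hypoxia targets near it or above. Fitted values of genes with 0 counts in a group depend on the prior count.

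Complement genes were part of that difference. In monocytes, 14 of 24 tested were higher, 1 lower and 9 did not pass, with a median log2 fold change of 2.47, and 2 were higher and 11 lower in macrophages. The difference test called 15 higher and 1 lower. Of all genes, 10.1% were higher and 7.1% lower in macrophages, and the difference test called 2.42% higher and 1.37% lower. C3ar1, the C3a receptor, was at 813, 515 and 585 CPM at day 2, against 4.75, 2.73 and 7.1 CPM in controls (log2 fold change 7.03 ± 0.35, adjusted p = 2.5e-11). C1qa was at 269, 197 and 143 CPM at day 2, against 1.37, 1.27 and 1.09 CPM in controls (log2 fold change 7.34 ± 0.40, adjusted p = 1.1e-10). C1qc was at 539.8, 501 and 316 CPM at day 2, against 2.94, 3.77 and 3.34 CPM in controls (log2 fold change 7.08 ± 0.43, adjusted p = 5.9e-10). Cfp, properdin, which stabilises the alternative pathway convertase, was at 1656, 1552 and 1811 CPM at day 2, against 247, 290.3 and 237 CPM in controls (log2 fold change 2.70 ± 0.21, adjusted p = 1.2e-08). C3 itself fell, at 223, 137 and 171 CPM at day 2, against 357, 219.6 and 691 CPM in controls (log2 fold change -1.26 ± 0.42, adjusted p = 0.032). Day 2 A and control B overlapped for C3, and the call was lost without day 2 B, day 2 C or control C, with the length offset or with the length and GC offset (adjusted p up to 0.2 over the alternatives). The decay-accelerating factor Cd55 was at 1.26, 0.889 and 1.53 CPM at day 2, against 0, 0 and 0 CPM in controls (at least 51.97-fold higher, adjusted p = 1.1e-05). The number higher was 10 without day 2 A, a library in which the C1 inhibitor Serping1 was at the highest of 10.6, 5.61 and 2.1 CPM at day 2, against 0.0218, 0.0531 and 0.0237 CPM in controls.

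Fibroblast transcripts stood beside these. Of 18 tested fibroblast markers, 12 were higher and 1, Pdgfrb, lower, against 15.5% higher and 11.5% lower of all genes. For Pdgfrb, the call was lost without day 2 A, day 2 B, day 2 C, control A or control C, with RLE factors, with the replicate block, with the length offset, with the GC offset or with the length and GC offset (adjusted p up to 0.14 over the alternatives). Their sum was 159, 73.7 and 15.9 CPM at day 2, against 4.1, 3.35 and 9.63 CPM in controls, highest in day 2 A. Decorin, Dcn, was at 39.96, 15.8 and 2.58 CPM at day 2, against 0, 0.0265 and 0.0473 CPM in controls (687-fold higher, 95% counting interval 234 to 3338, adjusted p = 4.9e-05), and lumican, Lum, at 16.2, 2.45 and 0 CPM at day 2, against 0, 0 and 0 CPM in controls (at least 203-fold higher, adjusted p = 0.002). Day 2 C held no Lum count. The count of higher members was 8 without day 2 A. Il33, Serping1, Cxcl12, Ccl11 and Mmp3, which fibroblasts also express, rose, and the part of fibroblast RNA in them was not tested. Ccl11 was at 17.3, 0.278 and 0.0478 CPM at day 2, against 0, 0 and 0 CPM in controls (at least 184-fold higher, adjusted p = 0.0023). Cxcl12 was at 4.56, 2.45 and 3.34 CPM at day 2, against 0, 0 and 0.426 CPM in controls (log2 fold change 4.54 ± 1.19, adjusted p = 0.008). Mmp3 was at 6.61, 1.95 and 0.287 CPM at day 2, against 0, 0 and 0 CPM in controls (at least 102-fold higher, adjusted p = 0.0018). Ccl11, Mmp3 and Serping1 had the order of the fibroblast sum over the day 2 libraries, A above B above C, and Il33 and Cxcl12 did not. Genes of other lists had that order too, such as Arg1, Spp1, Il1b, Cxcl3 and Ldha. What sets the order was not tested.

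Proteases of the matrix and their inhibitors changed in part. Of these, 11 of 23 tested were higher, 1 lower and 11 did not pass, with a median log2 fold change of 2.33 (1.84 with genes at 0 counts set to their bound). Timp1, the inhibitor of metalloproteinases, was at 187, 139 and 108 CPM at day 2, against 0.153, 0.0796 and 0.0237 CPM in controls (log2 fold change 10.62 ± 0.70, adjusted p = 1.7e-09, 9.88 with the length and GC offset). Mmp19 was at 339.7, 240.2 and 267 CPM at day 2, against 5.58, 4.17 and 9.82 CPM in controls (log2 fold change 5.43 ± 0.42, adjusted p = 1.1e-08). Adam8, a leukocyte sheddase, was at 524, 336 and 688 CPM at day 2, against 41.4, 15.7 and 10.2 CPM in controls (log2 fold change 4.52 ± 0.56, adjusted p = 6.1e-06). The macrophage elastase Mmp12 was at 34.8, 15.4 and 0.955 CPM at day 2, against 0.24, 0.929 and 1.02 CPM in controls (log2 fold change 4.54 ± 0.92, adjusted p = 0.0013). Mmp12 overlapped, since day 2 C was at control level, and the other 3 did not overlap. The inhibitor Timp2 fell (log2 fold change -2.06 ± 0.65, adjusted p = 0.024), and the call was lost without day 2 B, day 2 C, control B or control C (adjusted p up to 0.081 over the alternatives). Neither Mmp8 (log2 fold change 1.39 ± 0.64, adjusted p = 0.11) nor the sheddases Adam10 (log2 fold change 0.06 ± 0.41, adjusted p = 0.95) and Adam17 (log2 fold change 0.13 ± 0.38, adjusted p = 0.84) passed. Of cathepsins, legumain and cystatins, 11 of 17 tested were higher, 0 lower and 6 did not pass, with a median log2 fold change of 1.25. Ctsl was at 2206, 1570.1 and 1306 CPM at day 2, against 21.8, 35.97 and 29.8 CPM in controls (log2 fold change 5.86 ± 0.36, adjusted p = 6.1e-10). Ctsd was at 2763, 1774 and 2198 CPM at day 2, against 231, 241 and 292 CPM in controls (log2 fold change 3.14 ± 0.26, adjusted p = 2.7e-08). Lgmn, legumain, was at 868, 640.2 and 638 CPM at day 2, against 95.3, 80.5 and 124 CPM in controls (log2 fold change 2.84 ± 0.27, adjusted p = 1.6e-07). Ctsc (2.12 ± 0.27) and the inhibitor Cstb (3.25 ± 0.47, 2.34 with the length and GC offset) rose.

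Growth factors and mediators of scarring were mostly higher, and of that list 19 of 29 tested were higher, 2 lower and 8 did not pass, with a median log2 fold change of 2.87. Beside Spp1, Thbs1, Timp1 and Vegfa, Inhba, the activin A chain, was at 88.3, 54.6 and 36.8 CPM at day 2, against 2.9, 0.531 and 0.592 CPM in controls (log2 fold change 5.46 ± 0.92, adjusted p = 0.00023). Tgfbi, a matrix protein induced by transforming growth factor beta, was at 2676, 2612 and 4164 CPM at day 2, against 733, 598 and 833 CPM in controls (log2 fold change 2.13 ± 0.34, adjusted p = 0.00012). The galectin Lgals3 was at 4887, 4496 and 3289.5 CPM at day 2, against 1154, 1919 and 1186 CPM in controls (log2 fold change 1.57 ± 0.36, adjusted p = 0.003). The epidermal growth factor family members Areg at 5.35, 4.22 and 2.96 CPM at day 2, against 0.0654, 0 and 0 CPM in controls (167-fold higher, 95% counting interval 56.4 to 818, adjusted p = 0.00035) and Hbegf (3.42 ± 0.80) rose. Pdgfb fell (log2 fold change -2.90 ± 0.72, adjusted p = 0.0061, -2.00 with the length and GC offset), like Tgfb1, and the call was lost with the length and GC offset (adjusted p up to 0.063 over the alternatives). Fn1, fibronectin, was at 1641, 1126 and 624 CPM at day 2, against 1268, 568 and 2768 CPM in controls (log2 fold change -0.44 ± 0.56, adjusted p = 0.59). Fibronectin overlapped between the groups. Of coagulation and fibrinolysis genes, 14 of 23 tested were higher, 1 lower and 8 did not pass, with a median log2 fold change of 2.27. The lower count was 0 with the length offset and with any of the 6 libraries left out. F7, factor VII, was at 52.5, 32.6 and 21.8 CPM at day 2, against 1.72, 0.85 and 2.53 CPM in controls (log2 fold change 4.38 ± 0.53, adjusted p = 4.8e-06). F10, factor X, was at 518, 499.6 and 481 CPM at day 2, against 58.98, 108 and 118 CPM in controls (log2 fold change 2.4 ± 0.24, adjusted p = 4e-07). F3, tissue factor, which starts the extrinsic pathway with factor VII, was at 9.28, 8.62 and 14.04 CPM at day 2, against 0, 0.796 and 0 CPM in controls (log2 fold change 5.34 ± 1.26, adjusted p = 0.0039). Plaur, the urokinase receptor, was at 1381, 1496 and 1623 CPM at day 2, against 287, 395 and 248 CPM in controls (log2 fold change 2.27 ± 0.21, adjusted p = 1.3e-07), and the plasminogen receptor subunits Anxa2 (1.75 ± 0.24) and S100a10 (2.36 ± 0.40, 1.77 with the length and GC offset) rose.

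Arg1 and Nos2, given above, belong to arginine metabolism. Of that list, 8 of 15 tested were higher, 0 lower and 7 did not pass, with a median log2 fold change of 1.19. Arg2, the mitochondrial arginase, was at 228, 95.6 and 158 CPM at day 2, against 0.458, 1.99 and 1.61 CPM in controls (log2 fold change 6.89 ± 0.59, adjusted p = 5.2e-08, 6.24 with the length and GC offset). Slc7a2, an arginine transporter, was at 22.2, 11.8 and 6.83 CPM at day 2, against 0.0436, 0.451 and 0.0237 CPM in controls (log2 fold change 6.31 ± 1.06, adjusted p = 0.00021). The day 2 libraries were apart from the controls for both. Odc1, the first enzyme of polyamine synthesis, did not pass (log2 fold change 1.77 ± 0.68, adjusted p = 0.06), nor did Ass1, which regenerates arginine (log2 fold change 1.19 ± 0.46, adjusted p = 0.06).

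Alternative activation genes did not move as 1 set. Of these, 17 of 29 tested were higher, 2 lower and 10 did not pass, with a median log2 fold change of 1.65. The crosslinking enzyme Tgm2 was at 313, 172 and 519 CPM at day 2, against 8.92, 5.36 and 8.54 CPM in controls (log2 fold change 5.46 ± 0.66, adjusted p = 5e-06). Egr2 was at 93.3, 59.8 and 84.9 CPM at day 2, against 1.9, 5.47 and 1.33 CPM in controls (log2 fold change 4.78 ± 0.53, adjusted p = 1.7e-06). The inhibitory receptor Cd200r1 was at 98.6, 84.3 and 93.1 CPM at day 2, against 6.8, 12.8 and 8.81 CPM in controls (log2 fold change 3.28 ± 0.31, adjusted p = 1.8e-07). The factor Irf4 fell (log2 fold change -3.39 ± 0.50, adjusted p = 5.3e-05), and the lectins Clec10a (log2 fold change 0.21 ± 0.30, adjusted p = 0.64) and Mgl2 (log2 fold change 0.16 ± 0.43, adjusted p = 0.82) did not pass. The higher count was 12 without control A. Lipid-associated macrophage genes were higher in larger part, and of these 17 of 22 tested were higher, 1 lower and 4 did not pass, with a median log2 fold change of 2.34. They share Spp1, Cd9, Cd36, Ctsl and Ctsd with lists given above, and also held Trem2, a lipid receptor, at 324, 213 and 159 CPM at day 2, against 22.7, 48.8 and 41.2 CPM in controls (log2 fold change 2.63 ± 0.44, adjusted p = 0.0002). The fatty acid binding protein Fabp5 was at 144, 148 and 97.4 CPM at day 2, against 10.3, 23.6 and 15.7 CPM in controls (log2 fold change 2.98 ± 0.57, adjusted p = 0.00069). Gpnmb was at 54.4, 17.2 and 14.1 CPM at day 2, against 1.2, 2.15 and 1.73 CPM in controls (log2 fold change 4.07 ± 0.87, adjusted p = 0.0019). Plin2, which coats lipid droplets, rose (2.05 ± 0.23). The lysosomal lipase Lipa fell (log2 fold change -1.02 ± 0.33, adjusted p = 0.029), and the call was lost without day 2 B, day 2 C, control A or control C or with the length offset (adjusted p up to 0.099 over the alternatives).

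Of scavenger receptors and lipid efflux genes, 8 of 25 tested were higher, 1 lower and 16 did not pass, with a median log2 fold change of 0.71 (0.80 with genes at 0 counts set to their bound). Msr1, scavenger receptor A, was at 1312, 1059 and 1186 CPM at day 2, against 182, 237 and 190.4 CPM in controls (log2 fold change 2.54 ± 0.23, adjusted p = 1.2e-07). The cholesterol exporter Abca1 was at 139, 61.9 and 44.9 CPM at day 2, against 5.41, 3.82 and 6.58 CPM in controls (log2 fold change 3.96 ± 0.49, adjusted p = 6.5e-06), whereas Abcg1 did not pass (log2 fold change 0.16 ± 0.26, adjusted p = 0.68). Scarb1 fell (-1.43 ± 0.39). Foreign body giant cells form by fusion of macrophages, and of genes tied to fusion and osteoclasts 16 of 27 tested were higher, 4 lower and 7 did not pass, with a median log2 fold change of 1.30. The fusion receptor Dcstamp was at 4.25, 0.889 and 0.764 CPM at day 2, against 0.436, 0 and 0 CPM in controls (log2 fold change 3.6 ± 0.96, adjusted p = 0.0094). Ocstamp was at 1.81, 13.2 and 24.9 CPM at day 2, against 13.2, 8.18 and 6.53 CPM in controls (log2 fold change 0.52 ± 0.78, adjusted p = 0.66). The proton pump subunit Atp6v0d2 was at 15.5, 1.39 and 1.003 CPM at day 2, against 0.0436, 0.133 and 0.0237 CPM in controls (log2 fold change 6.39 ± 1.34, adjusted p = 0.0016). Dcstamp was at no more than 4.25 CPM in any library. For Dcstamp, the call was lost without day 2 A or in a fit of both groups alone (adjusted p up to 0.097 over the alternatives), and for Atp6v0d2, the call was lost in limma voom (adjusted p up to 0.12 over the alternatives). Sirpa, the receptor of CD47, fell (log2 fold change -1.47 ± 0.23, adjusted p = 0.00012), and Nfatc1, the osteoclast master factor, fell too (log2 fold change -1.30 ± 0.33, adjusted p = 0.0067). The lower count was 2 without day 2 A, without day 2 B, without control C or with the length and GC offset.

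Immediate-early genes respond within minutes of a stimulus, cell isolation included. Of these, 20 of 35 tested were higher, 5 lower and 10 did not pass, with a median log2 fold change of 1.03. Ier3 was at 1659.8, 2126 and 1725 CPM at day 2, against 5.3, 4.67 and 7.01 CPM in controls (log2 fold change 8.34 ± 0.38, adjusted p = 1.5e-11). The orphan receptor Nr4a2 was at 138, 146 and 399.8 CPM at day 2, against 2.01, 0.85 and 1.42 CPM in controls (log2 fold change 7.31 ± 0.64, adjusted p = 6.4e-08). Its relative Nr4a3 was at 34.6, 33.02 and 39.4 CPM at day 2, against 0.632, 0 and 0 CPM in controls (log2 fold change 7.31 ± 1.04, adjusted p = 3.7e-05). Both rose, and Nr4a1, given above, did not pass. AP-1 members split. Fosl1 (6.87 ± 0.93), Fosl2 (2.83 ± 0.34) and Fos, at 4037, 5312 and 3900.1 CPM at day 2, against 2714, 2055 and 1952 CPM in controls (log2 fold change 0.98 ± 0.24, adjusted p = 0.0048), rose, and Jun fell, at 78.1, 57.5 and 61.1 CPM at day 2, against 677, 540.0 and 613 CPM in controls (log2 fold change -3.22 ± 0.83, adjusted p = 0.0076). Junb did not pass (log2 fold change 0.84 ± 0.63, adjusted p = 0.34, 1.56 with the length and GC offset). Egr1 (log2 fold change -0.86 ± 0.60, adjusted p = 0.3) and Dusp1 (log2 fold change -2.45 ± 0.97, adjusted p = 0.066) did not pass. The lower count was 2 without day 2 A or without day 2 B, and 3 with the GC offset. The part of the digestion, which both groups went through, was not tested. The AP-1 motif TGANTCA was in a promoter of 1 of the 19 higher members with one, against 6.73% of tested genes with a promoter and 7.81% of all windows.

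Feedback genes of NF-kB went both ways, and 7 of 22 tested were higher, 5 lower and 10 did not pass, with a median log2 fold change of 0.61. Ptgs2, the inducible cyclooxygenase, was at 593, 414 and 516 CPM at day 2, against 4.51, 1.62 and 5.92 CPM in controls (log2 fold change 6.98 ± 0.67, adjusted p = 2.2e-07). The inhibitors Nfkbia (log2 fold change 1.71 ± 0.49, adjusted p = 0.014) and Nfkbie (log2 fold change 1.55 ± 0.29, adjusted p = 0.00062) rose, the subunits Nfkb1 (log2 fold change -1.19 ± 0.23, adjusted p = 0.00095) and Relb (log2 fold change -2.41 ± 0.64, adjusted p = 0.0086) fell, and Tnfaip3 did not pass (log2 fold change 0.90 ± 0.39, adjusted p = 0.088). For Nfkbia, the call was lost without day 2 B, control A or control C (adjusted p up to 0.085 over the alternatives). The higher count was 3 without control A, without control C or without day 2 B. The lower count was 2 without day 2 B, without control C or with the GC offset, and 3 without day 2 A or without day 2 C. Of prostaglandin and leukotriene genes, 10 of 18 tested were higher, 3 lower and 5 did not pass, with a median log2 fold change of 1.07. Beside Ptgs2, Ptges, prostaglandin E synthase, was at 36.7, 18.1 and 7.16 CPM at day 2, against 1.05, 2.18 and 5.18 CPM in controls (log2 fold change 2.88 ± 0.69, adjusted p = 0.0047). Hpgd, which degrades prostaglandins, was at 32.3, 35.9 and 24.5 CPM at day 2, against 269, 498 and 193 CPM in controls (log2 fold change -3.37 ± 0.52, adjusted p = 8.8e-05, -4.04 with the length and GC offset). The constitutive Ptgs1 did not pass (log2 fold change -0.13 ± 0.49, adjusted p = 0.88), and Ptger4, an E2 receptor, fell (-3.35 ± 0.72). The higher count was 6 without control A or without control C.

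Of antioxidant genes, 17 of 29 tested were higher, 3 lower and 9 did not pass, with a median log2 fold change of 1.26. Mt1, a metallothionein, was at 266, 367 and 246 CPM at day 2, against 4.53, 5.65 and 3.81 CPM in controls (log2 fold change 5.97 ± 0.56, adjusted p = 1.6e-07, 5.38 with the length and GC offset). Slc7a11, the cystine importer, was at 191, 57.2 and 77.6 CPM at day 2, against 5.32, 5.31 and 3.69 CPM in controls (log2 fold change 4.51 ± 0.42, adjusted p = 1.5e-07). Prdx6, a peroxiredoxin, was at 1190.5, 926 and 848 CPM at day 2, against 124, 194 and 139.5 CPM in controls (log2 fold change 2.70 ± 0.32, adjusted p = 4.5e-06). All 3 separated the groups. Hmox1, heme oxygenase 1, was at 494, 316 and 317 CPM at day 2, against 93.2, 129 and 108 CPM in controls (log2 fold change 1.77 ± 0.33, adjusted p = 0.00062), and Nfe2l2, which encodes Nrf2, rose (1.43 ± 0.25). Glutathione reductase, Gsr, fell (log2 fold change -1.86 ± 0.57, adjusted p = 0.02), and the call was lost without day 2 B, day 2 C or control C (adjusted p up to 0.078 over the alternatives). The lower count was 1 without day 2 B or without control C. Of iron and heme genes, 10 of 22 tested were higher, 2 lower and 10 did not pass, with a median log2 fold change of 1.06. The metalloreductase Steap4 was at 57.4, 15.95 and 37.1 CPM at day 2, against 0.0218, 0 and 0.0237 CPM in controls (2185-fold higher, 95% counting interval 604 to 18056, adjusted p = 1.9e-07). Ferritin heavy chain, Fth1, was at 1011, 9752 and 9577 CPM at day 2, against 1086, 1994 and 1067 CPM in controls (log2 fold change 2.29 ± 0.74, adjusted p = 0.027). Day 2 A lay at the control level for Fth1, far below day 2 B and C, and the call was lost without day 2 B, day 2 C, control A or control C (adjusted p up to 0.11 over the alternatives). The iron exporter Slc40a1 did not pass (log2 fold change 0.99 ± 0.60, adjusted p = 0.22). The higher count was 6 without control A, and no member was lower without day 2 A or without day 2 B.

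Of the antigen presentation list, 5 of 18 tested were higher, 1 lower and 12 did not pass, with a median log2 fold change of 0.22. Cd86 was at 339, 256 and 247 CPM at day 2, against 41.3, 68.7 and 37.9 CPM in controls (log2 fold change 2.51 ± 0.30, adjusted p = 4.2e-06). Cd80 was at 46.6, 34.5 and 39.5 CPM at day 2, against 6.34, 4.86 and 5.54 CPM in controls (log2 fold change 2.85 ± 0.31, adjusted p = 1.5e-06). Cd83 was at 194, 439.7 and 463 CPM at day 2, against 48.7, 28.9 and 31.1 CPM in controls (log2 fold change 3.34 ± 0.56, adjusted p = 0.00021). The thiol reductase Ifi30 (1.68 ± 0.29, 1.02 with the length and GC offset) and Ctss, given above, which process antigen, were the other called risers. The class II chain H2-Aa was at 1239, 1485 and 989 CPM at day 2, against 1134, 847 and 542 CPM in controls (log2 fold change 0.56 ± 0.44, adjusted p = 0.36). The invariant chain Cd74 was at 4359, 4731 and 4283 CPM at day 2, against 6596, 3461 and 2972 CPM in controls (log2 fold change 0.04 ± 0.37, adjusted p = 0.97). Ciita, the class II transactivator, fell (log2 fold change -1.72 ± 0.49, adjusted p = 0.013), and the call was lost without day 2 A or control A or with the length and GC offset (adjusted p up to 0.089 over the alternatives). In macrophages 3 of 18 were higher and 8 lower, and the difference test called 7 higher and 0 lower, H2-Aa among them (difference in log2 fold change 2.85 ± 0.65, adjusted p = 0.013). The shares of all genes were 10.1% higher and 7.1% lower in macrophages, and 2.42% higher and 1.37% lower by the difference test.

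Few interferon-stimulated genes were called, and 1 of 49 tested was higher, 3 lower and 45 did not pass, with a median log2 fold change of -0.22. Isg15 was at 155, 250.2 and 268 CPM at day 2, against 64.7, 68.8 and 56.5 CPM in controls (log2 fold change 1.83 ± 0.63, adjusted p = 0.036, 1.11 with the length and GC offset). Stat2 fell (log2 fold change -1.75 ± 0.46, adjusted p = 0.0088), as did Oas2 (log2 fold change -1.54 ± 0.52, adjusted p = 0.032) and Oas3 (log2 fold change -1.89 ± 0.64, adjusted p = 0.033). For Isg15, the call was lost without day 2 B, day 2 C, control A, control B or control C, with the length offset or with the length and GC offset (adjusted p up to 0.21 over the alternatives). For Oas2, the call was lost without day 2 A, day 2 B, control A or control C, with the replicate block or with the length and GC offset (adjusted p up to 0.13 over the alternatives), and for Oas3, the call was lost without day 2 A, day 2 B, control A or control C, with the length offset or with the length and GC offset (adjusted p up to 0.11 over the alternatives). Ifit1 (log2 fold change 0.76 ± 0.56, adjusted p = 0.32), Irf7 (log2 fold change -0.33 ± 0.46, adjusted p = 0.64) and Mx1 (log2 fold change -1.46 ± 0.63, adjusted p = 0.091) did not pass. Of all genes, 15.5% were higher and 11.5% lower.

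Of cell cycle genes, 6 of 50 tested were higher, 9 lower and 35 did not pass, with a median log2 fold change of -1.04, against 15.5% higher and 11.5% lower of all genes. The proliferation marker Mki67 was at 3.78, 2.22 and 1.29 CPM at day 2, against 8.87, 3.85 and 17.2 CPM in controls (log2 fold change -2.05 ± 0.92, adjusted p = 0.1). Top2a was at 1.34, 1.28 and 0.43 CPM at day 2, against 8.85, 7.54 and 3.83 CPM in controls (log2 fold change -2.74 ± 1.08, adjusted p = 0.065). Rrm2, a ribonucleotide reductase subunit, was at 0.315, 2.72 and 1.58 CPM at day 2, against 24.5, 11.2 and 9.85 CPM in controls (log2 fold change -3.28 ± 0.95, adjusted p = 0.015), and the call was lost without day 2 A or control A (adjusted p up to 0.063 over the alternatives). Also lower was Mcm6, of the replicative helicase, at 2.91, 7.12 and 8.02 CPM at day 2, against 30.6, 20.5 and 24.9 CPM in controls (log2 fold change -2.06 ± 0.52, adjusted p = 0.0064). Ccnd2, a cyclin of the first gap phase, was at 8.73, 24.3 and 10.7 CPM at day 2, against 2.75, 1.46 and 0.26 CPM in controls (log2 fold change 3.29 ± 0.76, adjusted p = 0.0033). The lower count was 3 without day 2 A, 4 without day 2 B, 5 without day 2 C and 4 without control A or without control C.

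Transcription factors of myeloid cells changed in both directions, and 13 of 38 tested were higher, 10 lower and 15 did not pass, with a median log2 fold change of 0.30. Ets2 was at 157, 97.1 and 156 CPM at day 2, against 6.58, 4.06 and 3.95 CPM in controls (log2 fold change 4.81 ± 0.47, adjusted p = 2.9e-07). Bhlhe40 was at 233, 203 and 261 CPM at day 2, against 27.9, 14.4 and 14.7 CPM in controls (log2 fold change 3.61 ± 0.35, adjusted p = 2.3e-07). The macrophage factor Maf was at 106, 94.4 and 57.4 CPM at day 2, against 11.3, 6.56 and 6.56 CPM in controls (log2 fold change 3.40 ± 0.37, adjusted p = 1.5e-06). Irf8, which commits progenitors to monocytes, was at 23.9, 135 and 172 CPM at day 2, against 544, 351 and 465 CPM in controls (log2 fold change -2.04 ± 0.53, adjusted p = 0.0075), and Nfe2 (-2.14 ± 0.44) and the lysosomal factor Tfeb (-2.44 ± 0.44, -1.08 with the length and GC offset) fell. Spi1, the lineage factor PU.1, was at 58.9, 120.1 and 621 CPM at day 2, against 643, 803 and 642 CPM in controls (log2 fold change -1.38 ± 0.70, adjusted p = 0.14). Day 2 A held the least Irf8 and Spi1, and Spi1 in day 2 C lay close to the controls.

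Among large housekeeping lists, most nuclear genes of oxidative phosphorylation were higher, and 59 of 74 tested were higher, 0 lower and 15 did not pass, with a median log2 fold change of 1.32. Atp5f1, a subunit of ATP synthase, was at 488, 441 and 396 CPM at day 2, against 137, 228 and 132 CPM in controls (log2 fold change 1.41 ± 0.23, adjusted p = 0.00015). Cox4i1, of cytochrome oxidase, was at 877, 817 and 563 CPM at day 2, against 251, 419 and 257 CPM in controls (log2 fold change 1.28 ± 0.32, adjusted p = 0.0061). The members are short, with a median exon length of 1737 bases, and shorter genes had the higher medians. With the length offset 40 were higher, with the length and GC offset 48, and 26 were higher without control A and 24 without control C. Of cytosolic ribosomal protein genes, 40 of 77 tested were higher, 0 lower and 37 did not pass, with a median log2 fold change of 0.98. With the length offset 23 of them were higher. The count was 7 without control A, 6 without control C, 14 without day 2 A and 25 without day 2 B. Of unfolded protein and heat shock genes, 13 of 24 tested were higher, 0 lower and 11 did not pass, with a median log2 fold change of 1.12. The chaperone Hspa5, BiP, was at 1751, 1749 and 2526 CPM at day 2, against 663, 574 and 501 CPM in controls (log2 fold change 1.79 ± 0.29, adjusted p = 0.00016), Calr, calreticulin, rose (1.55 ± 0.21), and Xbp1 did not pass (log2 fold change -1.13 ± 0.53, adjusted p = 0.12). Without control C 9 were higher. Of sterol and fatty acid synthesis genes, 2 of 26 tested were higher, 1 lower and 23 did not pass, with a median log2 fold change of 0.00. The higher count was 4 with the length offset and 0 without control A or without control C.

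**Figure D5:**
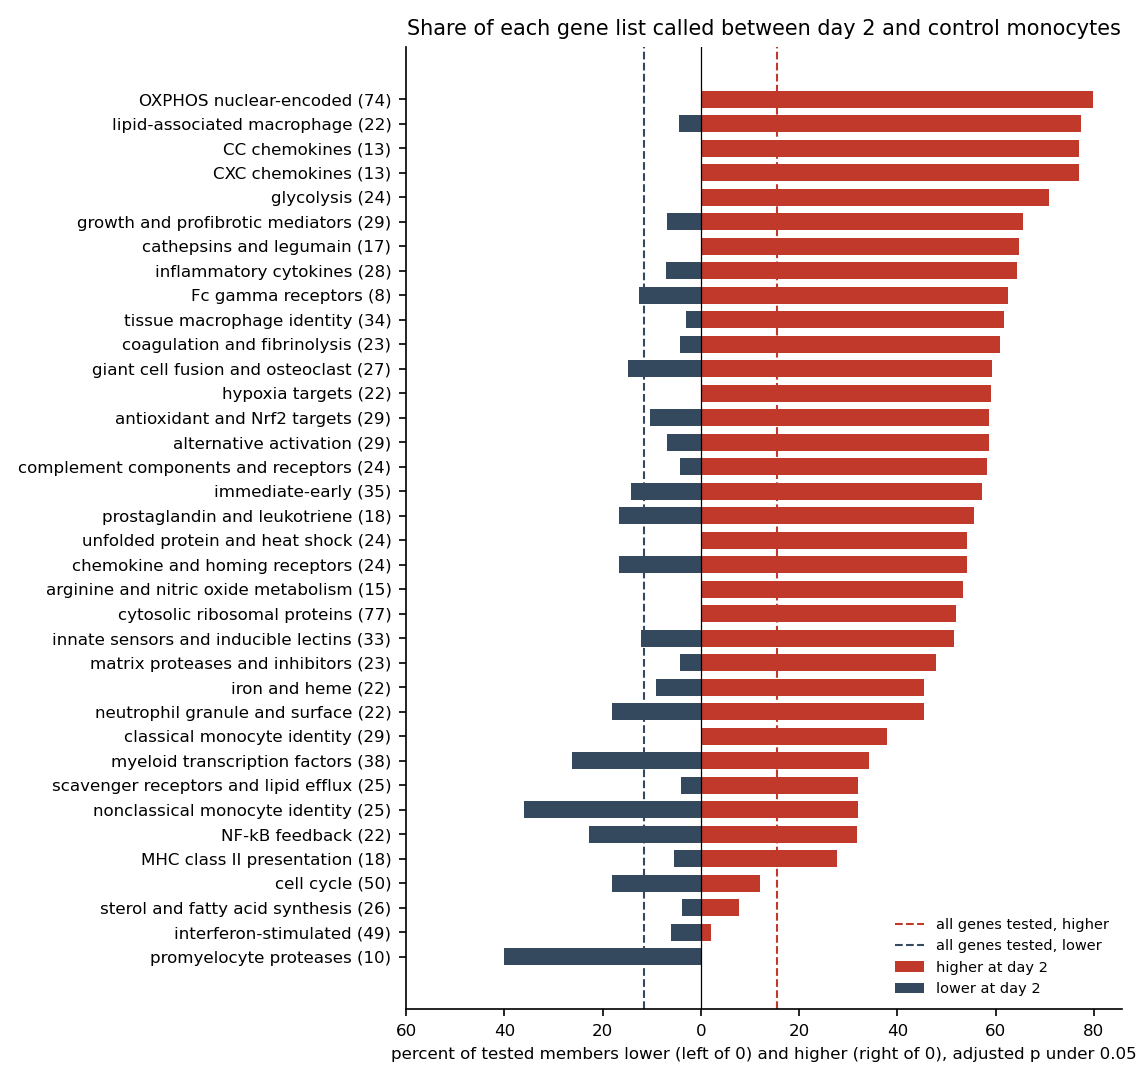
Percent of the tested members of each gene list that were higher (right, red) or lower (left, blue) in day 2 than in control monocytes at an adjusted p under 0.05. The number tested is in brackets, and dashed lines mark all genes tested, 15.5% higher and 11.5% lower. Chemokine and lipid-associated lists lie far right of the line, and interferon-stimulated and sterol lists inside both lines.

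Markers of lymphoid and other cells were checked as whole lists, and of all genes 15.5% were higher and 11.5% lower. Of 14 T and NK cell markers, 6 were higher, with a sum of 81.3, 247 and 35.7 CPM at day 2, against 12.5, 18.2 and 9.63 CPM in controls, highest in day 2 B. Those higher numbered 2 without day 2 B or without control C, and 3 without control B. Of 7 B and plasma cell markers, Jchain alone was called, and the sum was 19.4, 22.2 and 16.2 CPM at day 2, against 161, 88.8 and 67.3 CPM in controls. Of 12 dendritic cell markers, 3 were lower, Flt3, Cd209a and Batf3, with a sum of 225, 383 and 268 CPM at day 2, against 650.1, 526 and 241 CPM in controls. Flt3, the receptor for dendritic cell growth, was at 0.629, 4.61 and 4.54 CPM at day 2, against 41.2, 32.3 and 33.1 CPM in controls (log2 fold change -3.43 ± 0.99, adjusted p = 0.015). Without day 2 A none of the 3 was called. Of endothelial, adipocyte and eosinophil markers 2 of 10, 2 of 5 and 1 of 5 were higher, against 15.5% of all genes. Kdr, Retn, Cfd and Ccr3 were at no more than 5.92 CPM in any library, and Egfl7 had 0 counts in day 2 A. Without control A no adipocyte or eosinophil marker was called, and without day 2 B no endothelial one. None of the mast cell, keratinocyte and muscle markers tested was called, and the mast cell proteases Mcpt4, Cma1 and Tpsb2 had 0 counts in all 6 libraries. The part of these cells in the other results was not tested.

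Over all genes, the difference test between the cell types called 393 genes as changing more upward, or less downward, in monocytes than in macrophages (2.42%) and 222 the other way (1.37%). In macrophages 1643 genes were higher (10.1%) and 1154 lower (7.10%) at day 2. Of the CXC chemokines, 5 were called higher by the difference test and 0 lower, and of the CC chemokines 6 and 0. Ccl7 was at 1107, 1599 and 1874 CPM in day 2 macrophages, against 373 and 382 CPM in control macrophages (difference in log2 fold change 8.75 ± 0.89, adjusted p = 3.8e-06). Day 2 macrophages held more Ccl7 than day 2 monocytes, and control macrophages held more than control monocytes. Of the neutrophil list, 12 were called lower, S100a8 among them at 3157, 1460.5 and 2304 CPM in day 2 macrophages, against 0.522 and 2.64 CPM in control macrophages (difference in log2 fold change -9.12 ± 1.21, adjusted p = 7.3e-05). Hypoxia targets had 0 called higher and 2 lower, and 18 of 22 were higher in macrophages.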

How the data were processed

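RNA was sequenced from monocytes and macrophages of mouse subcutaneous tissue, in 23 libraries of 8 groups. The authors deposited whole-number counts of reads per gene. Per the submitters' processing notes, reads were aligned with STAR 2.4.1d to GRCm38 and counted by Subread 1.5.1's featureCounts. The annotation release and the strand setting were not given in the sources used here. Counts of overlapping and antisense genes are therefore uncertain. GENCODE M21 gave symbols to 47310 of 47729 entries.

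From these counts, 16260 genes were kept by filterByExpr and tested with edgeR 4.0.16 (R 4.3.3) by a quasi-likelihood test with robust dispersion over the 8 groups and TMM factors. The p-values were adjusted over all 16260 genes by the Benjamini-Hochberg method, and a gene was called at an adjusted p under 0.05. Levels are CPM, counts scaled to library totals with TMM factors, and fitted fold changes use a prior count of 0.125. The difference between cell types was the interaction term of the same fit. Library totals of the series ran from 9303153 to 32994092 counts, and intervals at 95% and bounds at 3 counts cover counting error only. No 2 libraries were identical. The labels give no batch. Alternatives used limma 3.58.1 and DESeq2 1.42.0, and the offsets for GC content were chosen after seeing the data.

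The gene lists and members were chosen with earlier results of these data known. Named genes were the 12 largest rises and 12 largest falls of called genes that averaged 10 CPM or more in the higher group without overlap, the 5 most abundant called genes of each group, up to 6 members of each list with the smallest adjusted p, and members with a defining role whatever their p. Predicted and unnamed genes, immune receptor segments, and mitochondrial and sex-linked genes were left out of the largest changes. A few members of the lists are counted but not reported by name. Which members were described by their role was decided after their values were seen. The p-values measure the spread between libraries within groups, estimated over all 23 libraries of the 8 groups and not from the compared groups alone.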

Additional observations from a re-analysis of the deposited data

Results flagged for a closer look

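The day 2 change differed between monocytes and macrophages, by edgeR's test of that difference, for 393 genes upward and 222 downward over all genes. Of 280 genes named here, 91 were among these, against 2.42% upward and 1.37% downward of all genes. Many named genes were chosen by their day 2 change in monocytes, which is part of that difference. A larger share among them was therefore built in and is not a result. Values are monocyte minus macrophage differences in log2 fold change of day 2 over control. They rest on 2 control macrophage libraries, and those of genes with 0 counts in a group depend on the prior count.

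9 genes rose in monocytes and fell in macrophages, with differences of 17.20 for Lum, 13.07 for Dcn, 11.24 for Serping1, 11.15 for Dab2, 10.11 for Cxcl12, 8.82 for C1qa, 8.30 for Stab1, 8.24 for C1qc and 6.34 for Mrc1. Lum and Dcn are fibroblast markers, and C1qa and C1qc complement chains. 25 genes rose in monocytes and did not pass in macrophages, with differences of 13.25 for Ccl11, 10.84 for Mmp3, 9.76 for Il10, 9.14 for Il33, 8.44 for Cd55, 7.64 for C1qb, 7.48 for Ccl12, 7.46 for Ccl24 and 7.24 for Mertk. Differences of 6.47 for Mmp9, 4.05 for Egr2, 3.85 for Maf, 3.77 for Abca1, 3.09 for Cd200r1, 3.09 for Cfp, 2.93 for Lgmn, 2.77 for Ctsd and 2.68 for Fcgr4 followed. The set ended with 2.57 for Tgfbi, 2.51 for Cd86, 2.42 for Ctsc, 2.26 for Il18, 1.92 for Fcgr1, 1.79 for Adgre1 and 1.30 for Fcgr3. Ccl11, Mmp3 and Il33, which fibroblasts also express, were among the largest. 18 genes rose in both cell types, and more in monocytes, with differences of 8.75 for Ccl7, 7.28 for Pf4, 6.58 for Steap4, 6.34 for Dhrs9, 6.17 for Ppbp, 6.03 for C3ar1, 4.77 for C5ar1, 4.47 for Ccr1 and 4.43 for Ier3. Differences of 4.13 for Cxcl1, 3.71 for Timp1, 3.6 for Ctsl, 3.30 for Ccl2, 2.91 for Tnfsf9, 2.90 for Mt1, 2.68 for Clec4n, 2.43 for Cxcl2 and 1.58 for Cd14 followed. 7 genes did not pass in monocytes and fell in macrophages, with differences of 10.94 for Timd4, 8.72 for Lyve1, 4.86 for Mgl2, 3.53 for Clec10a, 3.27 for Cd163, 2.85 for H2-Aa and 2.53 for Cd74. Timd4, Lyve1 and Cd163 mark resident macrophages, and H2-Aa and Cd74 belong to class II presentation. 2 genes fell in both cell types, and more in macrophages, with differences of 2.78 for Ciita and 2.39 for Siglec1.

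9 genes rose in both cell types, and more in macrophages, with differences of -8.66 for Ly6g, -4.96 for Ptges, -4.05 for Slc7a11, -2.99 for F10, -1.88 for Plaur, -1.83 for Clec4e, -1.74 for Prdx6, -1.48 for Aldoa and -1.36 for Eno1. 6 genes fell in monocytes and rose in macrophages, with differences of -12.02 for Ltf, -11.98 for Ngp, -5.93 for Gsr, -5.28 for Nfe2, -4.65 for Spn and -2.89 for Treml4. Ltf and Ngp are secondary granule genes of neutrophils. 7 genes fell in monocytes and did not pass in macrophages, with differences of -13.04 for Camp, -9.76 for Jchain, -7.32 for S1pr5, -5.63 for Ace, -2.43 for C3, -2.20 for Eno3 and -1.67 for Cybb. 8 genes did not pass in monocytes and rose in macrophages, with differences of -9.46 for Lcn2, -9.19 for S100a9, -9.12 for S100a8, -4.79 for Mmp8, -4.77 for Ndrg1, -3.69 for Fn1, -3.02 for Ass1 and -2.53 for Nr4a1. Lcn2, S100a8, S100a9 and Mmp8 are neutrophil genes, and the part of neutrophil RNA in either cell type was not tested.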

How the results depend on the processing

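The count of genes higher in day 2 than in control monocytes, 2522, was 2558 with RLE factors, 2173 without the low count filter, 3019 in DESeq2, 2467 with counts thinned to the lowest total, 2277 with the length offset, 2549 with the GC offset and 2254 with both, and 3828 in limma voom. The count of lower genes, 1867, was 1827, 2388, 2299, 1828, 1668, 1722 and 1503 under the same settings in the same order, and 3512 in limma voom. In a fit of both groups alone 2019 were higher and 2485 lower, so the higher share of calls was 44.8%, against 57.5% as reported, and 47.6% without the low count filter. The median over all genes moved to 0.13 in limma voom. Leaving out each library in turn gave 1498 to 2368 higher and 1030 to 1940 lower genes.

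The count for the difference between the cell types, 393 upward, was 720 without the low count filter, 631 in DESeq2 and 965 in limma voom, and 274 to 362 with a library left out. The downward count, 222, was 520, 363 and 517 in these settings, and 109 to 205 with a library left out, where a lone control macrophage library was assumed to vary like the other groups. A prior count of 2 enters the fitted fold changes and not the test, so it could change no call. With it 9 of the 199 called genes named here with a fitted fold change moved by over 1.5 times.

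Libraries that share a replicate letter did not deviate together, with same-letter correlations of -0.0825, 0.147 and 0.0395, and no label says what a letter marks, so the samples were not treated as pairs. With the replicate block alone 2358 genes were higher and 1731 lower, and the difference between the cell types gave 348 upward and 180 downward. With the block and the length and GC offset these were 2059, 1369, 362 and 213.

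Lyz2, at a log2 fold change of 0.01 as reported, was -0.60 with the length offset, -0.63 with the length and GC offset and -0.63 with the replicate block and both offsets, where it was called lower (adjusted p = 0.046, 0.035 and 0.049). The cause was not tested. Depth limits genes near 3 counts, and the day 2 libraries were the shallower ones.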
